A study of Mus musculus with 6 samples.

Results

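Axon regeneration-associated genes are the genes that injured neurons, best studied in the peripheral nervous system, switch on after their axons are cut. Of the 10 genes of this kind examined here (Atf3, Jun, Sox11, Klf6, Gadd45a, Sprr1a, Gap43, Tubb6, Stmn2 and Ecel1), 7 had a value anywhere and 6 of these were listed in every library, out of 15441 genes with a value in the whole series. They were taken by symbol through their Ensembl identifiers, and not by their levels. The data are 6 RNA-sequencing libraries of the whole ipsilateral cortex of young adult male C57/BL6J mice. In the photothrombosis model, light through the intact skull activates the injected dye Rose Bengal and clots the vessels beneath. Tissue was taken on 5 days after stroke (day 1, day 3, day 7, day 14 or day 28), and sham-operated mice, which were not illuminated and were taken at day 7 after the operation, served as control. RNA of 3 mice was pooled for every library, so there is 1 library per group, no difference has a replicate check, and no test was possible. Values are FPKM, that is, sequenced fragments scaled to transcript length and to library size. This scaling alone does not make levels fully comparable between genes or between libraries. Some ratios of the 10 genes below differ when corrected for transcript length, most of all at day 14. Values of all other genes are given without this correction. Where 5 values follow the control value, they stand for these days in order.

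In a regenerating neuron, transcription factors such as ATF3, c-Jun, SOX11 and KLF6 act early and drive a second set of genes. That set includes growth cone proteins (GAP-43, stathmin-2), a tubulin used for new axon (TUBB6), the small proline-rich protein SPRR1A, the stress sensor GADD45A and the membrane protease ECEL1. Neurons of the adult cortex already hold much GAP-43 and stathmin-2, whereas ATF3 is normally almost silent there.

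The genes fell into 3 sets. Atf3 was listed at day 1, 3, 7 and 14 and neither in control nor at day 28. Tubb6 and Ecel1 were at least 2-fold higher than control at some time points, with their highest levels at day 3 and day 14, respectively. Gap43, Stmn2 and Klf6 stayed within 1.37-fold of their own lowest level in all 6 libraries, and Gadd45a lay between, with 1.81-fold the control level at day 1. Jun, Sox11 and Sprr1a had no value in any library.

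**Figure D1:**
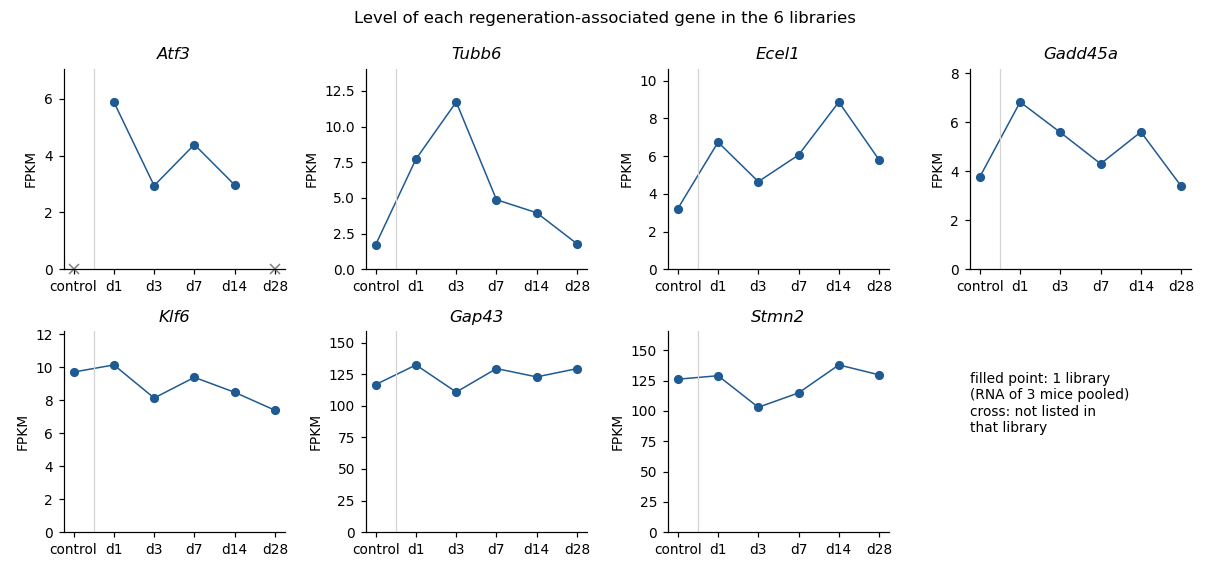
FPKM of the 7 genes with a value (y axis, from 0) in control and after stroke (d1 to d28, x axis, not to scale in time), 1 point per library, with crosses where a gene was not listed. Atf3 is listed from day 1 to day 14, Tubb6 is highest at day 3 (11.7 FPKM) and Ecel1 at day 14 (8.86 FPKM), while Gap43, Stmn2 and Klf6 are nearly level.

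The promoters are shown here because c-Jun and ATF3 bind short promoter motifs of known letters. RefSeq promoter windows of GRCm38.p6, from 250 bases before to 50 bases after the start site, were at hand for 7 of the 10 genes. Capitals mark a match to the AP-1 motif (TGAGTCA or TGACTCA), to the cAMP response element (CRE, TGACGTCA) or to a CRE variant (TGACGTAA or TTACGTCA). Each motif is given with its reverse complement and was thus searched on both strands. Windows are printed 5′ to 3′ for the 4 genes that had both a window and a value. They lie at chr1:191183284-191183583 (Atf3, minus strand), chr1:87156307-87156606 (Ecel1, minus strand), chr6:67037358-67037657 (Gadd45a, minus strand) and chr13:5861239-5861538 (Klf6, plus strand).
Atf3: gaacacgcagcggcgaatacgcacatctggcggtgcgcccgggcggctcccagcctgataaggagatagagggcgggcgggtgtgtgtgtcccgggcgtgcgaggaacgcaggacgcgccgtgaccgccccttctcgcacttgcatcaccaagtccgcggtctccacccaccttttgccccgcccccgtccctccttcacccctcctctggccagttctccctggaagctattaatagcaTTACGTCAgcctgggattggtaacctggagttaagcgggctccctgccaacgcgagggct
Ecel1: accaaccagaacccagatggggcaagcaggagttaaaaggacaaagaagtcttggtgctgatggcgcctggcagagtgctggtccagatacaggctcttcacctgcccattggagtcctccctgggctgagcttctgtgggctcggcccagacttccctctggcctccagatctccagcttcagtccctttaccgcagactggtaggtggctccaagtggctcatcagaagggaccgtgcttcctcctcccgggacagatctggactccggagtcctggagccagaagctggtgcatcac
Gadd45a: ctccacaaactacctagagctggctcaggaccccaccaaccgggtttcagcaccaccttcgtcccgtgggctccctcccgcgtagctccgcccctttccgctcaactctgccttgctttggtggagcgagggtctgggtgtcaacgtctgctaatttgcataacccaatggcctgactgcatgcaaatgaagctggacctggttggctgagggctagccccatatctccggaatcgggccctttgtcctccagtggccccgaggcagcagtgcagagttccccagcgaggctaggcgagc
Klf6: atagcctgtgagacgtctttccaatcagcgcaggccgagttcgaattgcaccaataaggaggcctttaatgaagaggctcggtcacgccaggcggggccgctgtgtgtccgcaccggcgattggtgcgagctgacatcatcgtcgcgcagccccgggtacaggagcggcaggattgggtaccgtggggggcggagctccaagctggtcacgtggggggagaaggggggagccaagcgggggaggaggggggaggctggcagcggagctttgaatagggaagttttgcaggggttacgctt
The Atf3 window held the CRE variant (TTACGTCA), with its first base at position -10 from the start site. This variant was present in 0.499% of all 32851 windows. The other 3 windows printed held none of these letters. Of the genes without a value, Sprr1a had the AP-1 letters with first bases at positions -146 and -116 from its start site, a motif found in 5.2% of all windows, and Jun and Sox11 had no match. The full CRE, in 1.79% of all windows, was in none of the 7. A match of letters is a description of the sequence and not a measured binding site.

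Among the transcription factors, Atf3 (ENSMUSG00000026628, chromosome 1, 191170296 to 191218039 of GRCm38, minus strand) had 5.89, 2.94, 4.39 and 2.97 FPKM from day 1 through day 14. Neither control nor day 28 listed it, so no ratio is given. Day 1 was 2.00-fold above day 3, and day 7 was 1.49-fold above day 3. In every library that listed Atf3, its whole FPKM belonged to a single transcript start at 191183093 to 191183340. The 5′ end of this start lies 7 bases upstream of the RefSeq start site in the window printed above. No start was listed at the far upstream exon where the annotated span of the gene begins. An end and a kept intron had the same FPKM as this start. Among the 7 genes, Atf3 was the lowest on days 1, 3 and 14, and at day 1 48.8% of all listed genes were below it.

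Klf6 (ENSMUSG00000000078, chromosome 13, 5861482 to 5870394), a zinc finger factor that promotes axon growth, had 9.72 FPKM in control, then 10.1, 8.14, 9.39, 8.49 and 7.40 from day 1 through day 28. Its highest level was 1.37-fold its lowest, and the log2 ratio to control lay between -0.39 at day 28 and 0.06 at day 1. All its FPKM came from 1 start, 1 end and the skipping of 1 exon in each library.

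Jun and Sox11 have a single exon in every annotated transcript, and the tables hold few such genes. Of 1318 protein-coding genes annotated with 1 exon, 38 had a value (2.88%), against 376 of 1917 with 2 exons (19.6%), 802 of 1830 with 3 exons (43.8%) and 12481 of 16873 with 4 or more (74%). Sprr1a has 2 exons. The lack of a value for these 3 genes is therefore no measurement of their level.

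Among the effectors, Tubb6 (ENSMUSG00000001473, chromosome 18, 67390717 to 67402749), a beta-tubulin that is scarce in resting brain, had 1.72 FPKM in control, then 7.72, 11.7, 4.87, 3.96 and 1.79 from day 1 through day 28. All 4 libraries from day 1 to day 14 were above control and day 28, which were nearly equal. The ratio to control was 4.48-fold at day 1 and 6.80-fold at day 3, and the log2 ratios were 2.10, 2.70, 1.45, 1.15 and 0.05 in the order of the days. These log2 ratios, and all others here, were taken after adding 0.1 to each FPKM. From control to day 3 Tubb6 passed from the lowest to the third highest of the listed members. At day 14 the value depended on the processing, with a log2 ratio of 0.86 when 1 was added to each FPKM and 0.83 when corrected for transcript length. Levels of astrocyte, endothelial, fibroblast, meningeal, microglial and macrophage genes also differed between these libraries. The summed FPKM of the 4 astrocyte markers was 281 in control, then 509, 949, 641, 551 and 339 from day 1 through day 28, and like Tubb6 it was above control at day 1 and highest at day 3. Most of this difference was in Gfap, the filament protein of reactive astrocytes, with 85.8 FPKM in control, 330 at day 1 and 698 at day 3, whereas Aldh1l1 had 24.5, 28.1 and 25.2 FPKM in these libraries. Of 4 endothelial markers, 3 were listed in control, summing to 8.33 FPKM, and 3 at day 3, where the sum was also highest (16.6 FPKM). Cldn5 was listed at day 1 alone and Flt1 was not listed at day 14, so these sums do not hold the same genes in every library. The summed FPKM of the 5 fibroblast and meningeal markers was 24.9 in control, then 28.3, 84.9, 105, 93.1 and 25.3 from day 1 through day 28. That of the 6 microglia and macrophage markers with a value, of 7 named, was 40.3, 45.1, 219, 449, 274 and 59.6 in the same order. These last 2 sums were close to control at day 1 and highest at day 7. Most of the microglia and macrophage sum at day 7 was Lyz2 (357 FPKM). Csf1r and Cd68 were also highest at day 7, whereas Aif1 and Ptprc were highest at day 14. Cx3cr1 was listed only at day 1 (0.098 FPKM) and day 14 (1.84 FPKM), so it has no course over the libraries. Of the fibroblast and meningeal markers, the collagens were highest at day 7 and Dcn and Lum at day 14. The part of any of these cells in the Tubb6 values was not tested.

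Tubb6 is a minor isotype in this tissue. Of 8 named, 5 had a value, and Tubb6 alone was past a 2-fold difference at day 1, 3, 7 and 14. On these days 5.11%, 8.54%, 8.53% and 8.97% of all genes tested were at least 2-fold higher. Tubb2b, a major neuronal beta-tubulin, had 335 FPKM in control, then 373, 332, 314, 393 and 325 from day 1 through day 28. Its lowest library was thus far above the 11.7 FPKM of Tubb6 at day 3.

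Ecel1 (ENSMUSG00000026247, chromosome 1, 87147655 to 87156521) encodes a neuronal membrane metalloprotease that is switched on by nerve injury. It had 3.21 FPKM in control, then 6.73, 4.64, 6.06, 8.86 and 5.80 from day 1 through day 28. All 5 post-stroke libraries were above control, including day 28, where the fold was 1.80. The log2 ratio was 1.04, 0.52, 0.89, 1.44 and 0.83 in the order of the days. The day 1 value was below the threshold of 1 when 1 was added to each FPKM (0.88) or when corrected for transcript length (0.99). At day 14 the log2 ratio was 1.23 and 1.31 under these alternatives.

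Genes of the hypothalamus, a region outside the cortex, were listed in the post-stroke libraries beside Ecel1. The summed FPKM of the 5 hypothalamic markers with a value, of 6 named, was 2.16 in control, then 61.1, 12.4, 38.7, 27.2 and 7.53 from day 1 through day 28. Of these 5, control listed 1 (Trh, 2.16 FPKM), and oxytocin (Oxt), vasopressin (Avp) and melanin-concentrating hormone (Pmch) were not listed there. Avp had 18.9, 4.24, 18.1, 11.7 and 3.01 FPKM from day 1 through day 28. Ecel1 and the hypothalamic sum were both lower at day 3 than at day 1 and day 7. The sum was highest at day 1, as was the leading Ecel1 start described below (5.90 FPKM), while the Ecel1 gene level was highest at day 14. The 3 thalamic markers summed to 10.7 FPKM in control, then 11.1, 10.3, 14.3, 16.4 and 7.15 from day 1 through day 28. This sum, like the Ecel1 gene level, was highest at day 14 and lower at day 3 than at day 1. Most of the sum was Prkcd, which made up 14.7 of the 16.4 FPKM at day 14. Prkcd and Lef1 were highest at day 14, whereas Tcf7l2 had its lowest value there (0.559 FPKM). Only Tcf7l2 was lower at day 3 (0.662 FPKM) than at day 1 (1.98 FPKM). Other neighbouring regions were also represented, with sums of 159 to 318 FPKM for 3 striatal markers and 181 to 559 for 3 choroid plexus markers. The choroid plexus sum was 285 FPKM in control, then 462, 181, 344, 296 and 559 from day 1 through day 28. It too was lower at day 3 than at day 1 and day 7, so the dip was not particular to the hypothalamic sum. The part of these regions in the Ecel1 values was not tested.

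**Figure D2:**
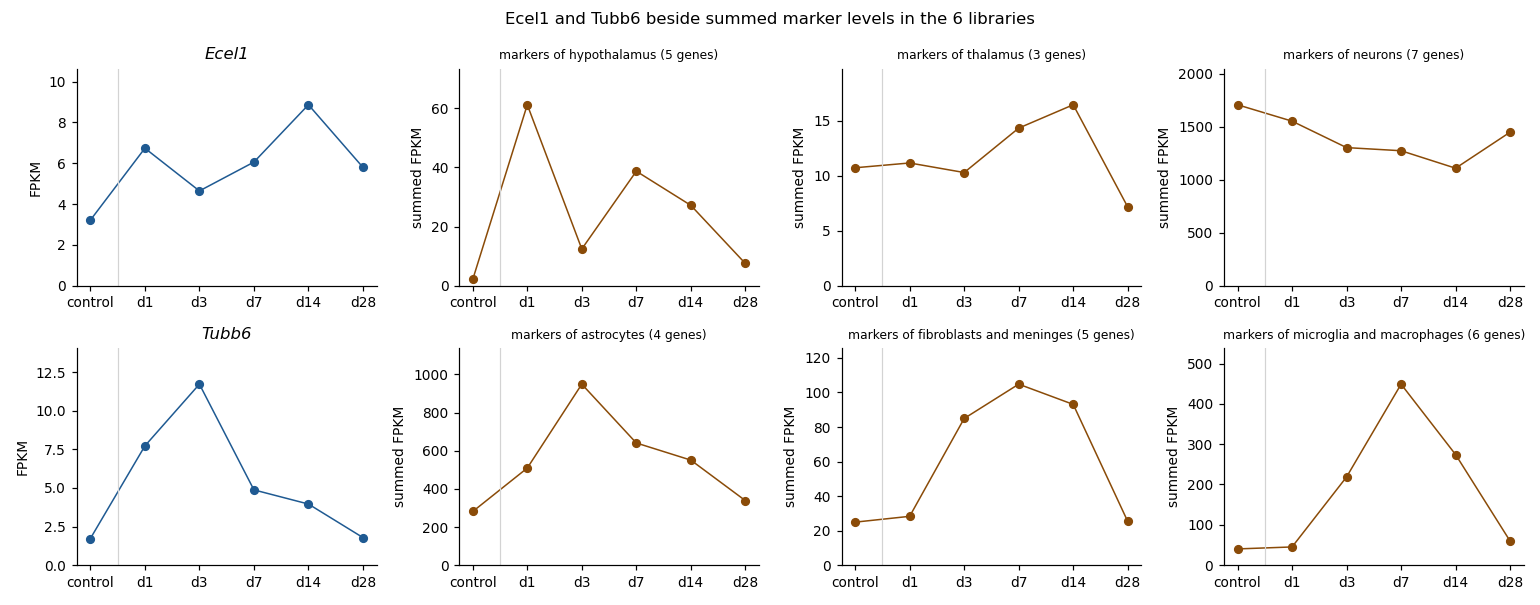
Ecel1 and Tubb6 (FPKM, left panels) beside the summed FPKM of marker genes of the hypothalamus, thalamus and neurons (top) and of astrocytes, fibroblasts and meninges, and microglia and macrophages (bottom) in the 6 libraries (x axis, not to scale in time), 1 point per library. Ecel1 and the hypothalamic sum both dip at day 3, as does the choroid plexus sum, which is not drawn. The thalamic sum, mostly Prkcd, is highest at day 14 as Ecel1 is. Tubb6 and the astrocyte sum (949) are both highest at day 3, and the fibroblast and microglia sums are highest at day 7.

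Gadd45a (ENSMUSG00000036390, chromosome 6, 67035096 to 67037457), which binds partners that halt the cell cycle and aid DNA repair, had 3.78 FPKM in control, then 6.83, 5.59, 4.31, 5.61 and 3.40 from day 1 through day 28. Control and day 28 were the lowest libraries, and the log2 ratios of 0.84 at day 1, 0.55 at day 3 and 0.56 at day 14 stayed below the threshold. With correction for transcript length the day 14 ratio was 0.13. Its paralogs were further above control at day 1. Gadd45b had 5.23 FPKM in control and 20.6 at day 1, a log2 ratio of 1.96. Gadd45g had 7.53 FPKM in control and 17.0 at day 1, a log2 ratio of 1.16. No gene of this family was past the threshold from day 3 on. Over all genes tested, 5.11% were at least 2-fold higher at day 1, then 8.54%, 8.53%, 8.97% and 3.68%. From day 3 on, 2.12% to 6.92% were lower. The lack of a call among the 3 genes of the family on these later days is thus near the background.

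Gap43 and Stmn2 were the most abundant members in every library. Gap43 (ENSMUSG00000047261, chromosome 16, 42248442 to 42340651), the growth-associated protein of growth cones and presynaptic terminals, had 117 FPKM in control, then 132, 111, 129, 123 and 129 from day 1 through day 28. The control level lay inside the range of the post-stroke levels, and the highest was 1.19-fold the lowest. Stmn2 (ENSMUSG00000027500, chromosome 3, 8509360 to 8561606), a regulator of microtubule dynamics in growth cones, had 126 FPKM in control, then 129, 103, 115, 138 and 130 from day 1 through day 28. Here too the control level lay inside the post-stroke range, and the highest was 1.34-fold the lowest. In control 97.5% of all listed genes were below Gap43 and 97.8% below Stmn2.

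The spread over the 6 libraries differed between the members. Among 10169 genes with at least 1 FPKM in all libraries, the median distance between the highest and the lowest library was 0.66 on the log2 scale. Distances were taken without correction for transcript length, and the genes compared were not matched to the members by level. The distance was 0.26 for Gap43, and 4.08% of the genes had a smaller one. It was 0.42 for Stmn2 (19.8% smaller), 0.45 for Klf6 (23.5% smaller), 0.99 for Gadd45a (76.2% smaller), 1.44 for Ecel1 (91% smaller) and 2.70 for Tubb6 (99.3% smaller).

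Neuronal marker genes differed among themselves. The summed FPKM of 7 neuronal markers with a value, of 8 named, was 1708 in control, then 1554, 1304, 1274, 1110 and 1450 from day 1 through day 28. Snap25, a synaptic vesicle fusion protein, had 706 FPKM in control and 486 at day 14. Snap25 and Syt1, genes of synaptic vesicle release, and Slc17a7 and Nefl were below control in all 5 post-stroke libraries. Gad1, the enzyme that makes GABA, had 70.3 FPKM in control, then 82.2, 60.6, 67.2, 77.3 and 86.5 from day 1 through day 28. Rbfox3 was above control on days 1 and 14. Map2 had 113 FPKM in control, then 68.4, 164, 91.7, 23.7 and 69.5 from day 1 through day 28, and was thus above control at day 3 alone. Gap43 was below control at day 3 and above it in the other 4 libraries. At day 14 its log2 ratio was 0.07, but -0.32 when corrected for transcript length, so its direction there depended on the processing. In bulk tissue, fewer cells of a type and less RNA per cell cannot be told apart. The other stathmins also had high levels throughout. Stmn1, Stmn3 and Stmn4 were between 105 and 423 FPKM in all libraries, and none of the 4 stathmins was past a 2-fold difference at any day. Over all genes tested, between 3.68% (day 28) and 8.97% (day 14) were at least 2-fold higher, and between 2.12% (day 7) and 6.92% (day 14) lower. The lack of a call among 4 genes is thus near the background.

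Counted over the list, 3 of 7 genes tested were at least 2-fold higher than control at day 1 (Atf3, Tubb6 and Ecel1), against 5.11% of 11790 genes tested. At day 3 there were 2 of 7 (Atf3 and Tubb6; 8.54% of all genes), at day 7 again 2 of 7 (Atf3 and Tubb6; 8.53%) and at day 14 3 of 7 (Atf3, Tubb6 and Ecel1; 8.97%). At day 28 0 of 6 tested were higher (3.68% of all genes). None was at least 2-fold lower at any day, where the share of all genes was 4.48%, 2.53%, 2.12%, 6.92% and 2.79% in the order of the days. A gene was tested when it had at least 1 FPKM in either library, and a gene not listed in control then counts as higher by construction. Atf3 entered the counts this way on 4 days, so its calls are no measured fold. Among genes listed in both libraries, 2 of 6 members were higher at day 1 (4.13% of all such genes), 1 of 6 at day 3 (7.15%), 1 of 6 at day 7 (7.08%), 2 of 6 at day 14 (7.69%) and 0 of 6 at day 28 (3.00%). The median log2 ratio of the 6 members listed in both libraries was 0.51, 0.22, 0.17, 0.34 and 0.04 in the order of the days, beside 0.01, 0.03, 0.03, 0.10 and 0.03 over all genes. The 5 comparisons share the control library, so a deviation of that library enters each of them.

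**Figure D3:**
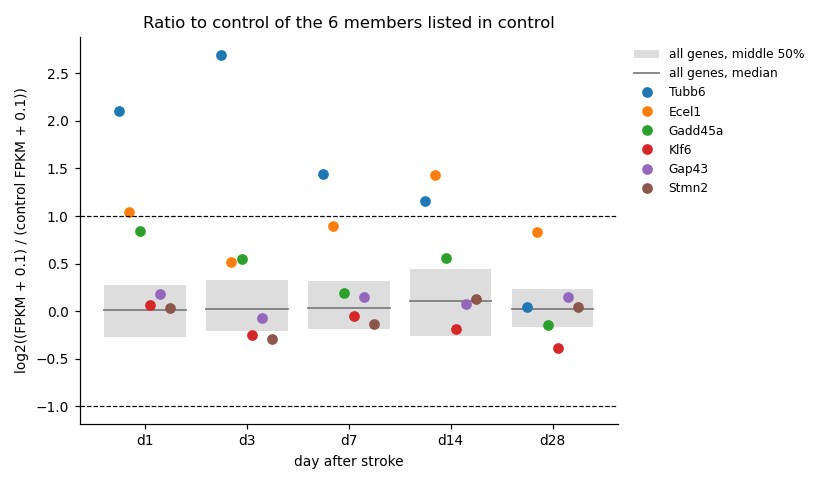
Log2 ratio to control (y axis, 0.1 added to each FPKM) of the 6 members listed in control at each day after stroke (x axis), 1 point per gene, with the middle 50% (grey bar) and the median (line) of all genes and the threshold of 1 in size (dashed). Tubb6 (2.10 at day 1, 2.70 at day 3) and Ecel1 (1.44 at day 14) lie above the threshold, and no member lies below -0.39.

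The transcript starts of 4 members, Gap43, Stmn2, Gadd45a and Ecel1, differed between libraries. Of these, only Gap43 had another leading start than in control at any day. How often minor starts differ between libraries over all genes was not counted, so no background stands beside the number of members. For Gap43, the start at 42340473 to 42340651 held all start FPKM in control and on days 1, 3, 7 and 28. At day 14 it held 13.5 FPKM, and a start at 42340677 to 42341050, just upstream of the annotated gene and not listed elsewhere, held 109 FPKM, or 89.0% of the start total. The end of the transcript was the same in all 6 libraries. A change of leading start between control and day 14 was found for 8.85% of the 6182 genes compared, which had at least 5 FPKM in all libraries.

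For Stmn2, the start at 8509360 to 8509630 held 126 FPKM in control and 138 at day 14. At day 28 it held 76.5 FPKM, or 58.9% of the start total, beside 43.1 FPKM at a start at 8510146 to 8510181 and 10.2 FPKM at a start at 8523915 to 8524028. The start at 8510146 was also listed at day 3, with 9.61 FPKM. Only a minor Stmn2 end was listed, between 0.454 FPKM at day 3 and 2.43 FPKM at day 1, so that the end sum would give a log2 ratio of 1.19 at day 1 in place of 0.03 and the Stmn2 level rests on its starts.

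For Gadd45a, control had 1.92 FPKM at the start at 67037201 to 67037364 and 1.86 FPKM at the one at 67037010 to 67037201. In the post-stroke libraries the first of these held 6.80, 5.56, 3.74, 5.58 and 3.36 FPKM from day 1 through day 28. The other held 0.0296 FPKM at day 1, 0.564 at day 7 and 0.0355 at day 28. All 5 post-stroke libraries were above control at the former and below it at the latter, and at day 28 the former was above control although the gene level (3.40 FPKM) was below it. These 2 starts abut each other, and the first of them begins 43 bases downstream of the RefSeq start site.

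For Ecel1, the start at 87156020 to 87156521 was the leading one in every library, with 3.12 FPKM in control, then 5.90, 3.73, 5.40, 5.63 and 5.13 from day 1 through day 28. It thus accounts for 99.9% of the start total in control and 74.8% at day 14. A further start at 87153948 to 87154007, inside the gene, was listed at day 14 alone, with 1.90 FPKM. The leading start was between 5.13 and 5.90 FPKM in 4 of the 5 post-stroke libraries. The gene level of 8.86 FPKM at day 14 is the sum of its ends, and the sum of its starts was 7.53 FPKM there, a log2 ratio of 1.24.

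**Figure D4:**
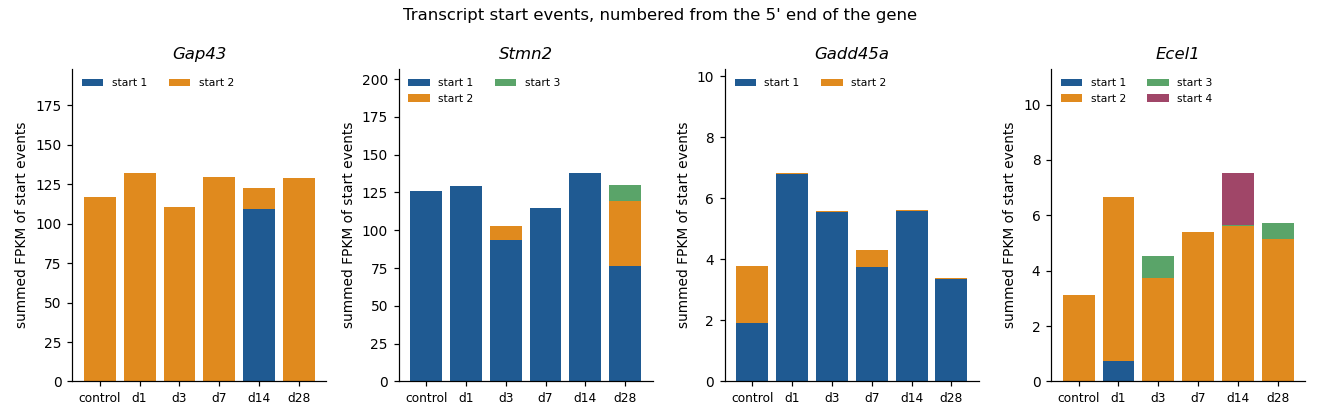
FPKM of each transcript start of Gap43, Stmn2, Gadd45a and Ecel1 (stacked bars, y axis from 0) in the 6 libraries (x axis), with starts numbered from the 5′ end of the gene. Gap43 at day 14 is mostly from start 1 (109 FPKM), Stmn2 at day 28 is divided over 3 starts, and in control Gadd45a is divided between 2 starts that differ at all later times.

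Around these genes, 3 lists of the same programme were counted. They were chosen with earlier results of these data known. Of 25 injury transcription factors, 21 had a value, and at day 1 8 of 19 tested were at least 2-fold higher (42.1%, against 5.11% of all genes) and 1 lower. The numbers higher were 2 of 18 at day 3, 1 of 17 at day 7, 1 of 18 at day 14 and 3 of 18 at day 28. These are 11.1%, 5.88%, 5.56% and 16.7%, against 8.54%, 8.53%, 8.97% and 3.68% of all genes. The counts from day 3 to day 14 are thus near the background. Fosl1 and Maff, which control did not list, are among the 8 by construction, as are Fosl1 at day 3 and Cebpd on days 14 and 28. Of those listed in both libraries, 6 of 17 were higher at day 1 (35.3%, against 4.13% of all such genes), then 1, 1, 0 and 2 of 17. The shares of all such genes at these later days were 7.15%, 7.08%, 7.69% and 3.00%. Fosb, a partner of c-Jun in AP-1, had 1.05 FPKM in control, 11.9 at day 1 and 1.33 at day 3. Fos, another partner, had 3.74 FPKM in control, then 16.1, 8.44, 8.79, 7.09 and 13.9 from day 1 through day 28. Maff, a small Maf factor, was absent from the control table and had 6.84 FPKM at day 1 and 0.867 at day 3. Stat3, which relays gp130 cytokine signals in injured neurons, had 6.95 FPKM in control, 16.7 at day 1 and 13.9 at day 3. Day 1 was thus the highest library for Fosb, Fos, Maff and Stat3, as for Atf3, but the return was uneven, and Fos was high again at day 28. Creb1 was the lower gene at day 1 and day 14, with 5.69 FPKM in control, 2.64 at day 1 and 0.804 at day 14. No correction for transcript length was applied to these values. Myc was the lower gene at day 28, with 0.582 FPKM against 1.33 in control.

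Of 26 growth cone and cytoskeleton genes, 21 had a value. At day 1 1 of 20 tested was higher (Tuba1b), at day 3 1 of 20 (Tuba1b), at day 7 2 of 21 (Tuba1b and Dcx), at day 14 1 of 20 (Dcx) and at day 28 0 of 19. Over all genes the shares were 5.11%, 8.54%, 8.53%, 8.97% and 3.68%, so these counts are close to the background. Control did not list Tuba1b, which counts as higher by construction, and without it 0 of 19 were higher at day 1, 0 of 19 at day 3 and 1 of 20 at day 7. Dpysl5, a collapsin response mediator, was lower at day 14, with 1.14 FPKM against 5.04 in control. The median log2 ratio of those listed in both libraries was 0.10, -0.08, -0.01, 0.08 and -0.09 in the order of the days. Tuba1a, the main neuronal alpha-tubulin, was between 614 and 697 FPKM in all libraries.

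Of 24 secreted and injury effector genes, 22 had a value. Those at least 2-fold higher were 9 of 18 tested at day 1, then 8 of 16, 8 of 17, 7 of 16 and 2 of 14, against 5.11%, 8.54%, 8.53%, 8.97% and 3.68% of all genes, and Cacna2d1 was lower at day 14. Control did not list Arg1, Gal and Plaur, whose calls were fixed by construction. Among genes listed in both libraries, 6 of 15 were higher at day 1, then 6 of 14, 5 of 14, 6 of 15 and 2 of 14, against 4.13%, 7.15%, 7.08%, 7.69% and 3.00% of all such genes. Cdkn1a, the cell cycle inhibitor p21, had 3.85 FPKM in control, then 55.3, 11.7, 10.1, 10.3 and 8.21 from day 1 through day 28. Timp1, a metalloproteinase inhibitor, had 0.278 FPKM in control, then 16.2, 16.5, 5.33 and 6.86 from day 1 through day 14, and day 28 did not list it. Hspb1, a small heat shock protein of injured neurons and glia, had 3.99 FPKM in control, 23.9 at day 1 and 9.43 at day 3. Arg1, an arginase that macrophages also make, was absent from the control table and had 12.5 FPKM at day 3. Several of these genes are also expressed by glia, macrophages and fibroblasts, whose marker sums differed between the same libraries as given above, and their part in these values was not tested.

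**Figure D5:**
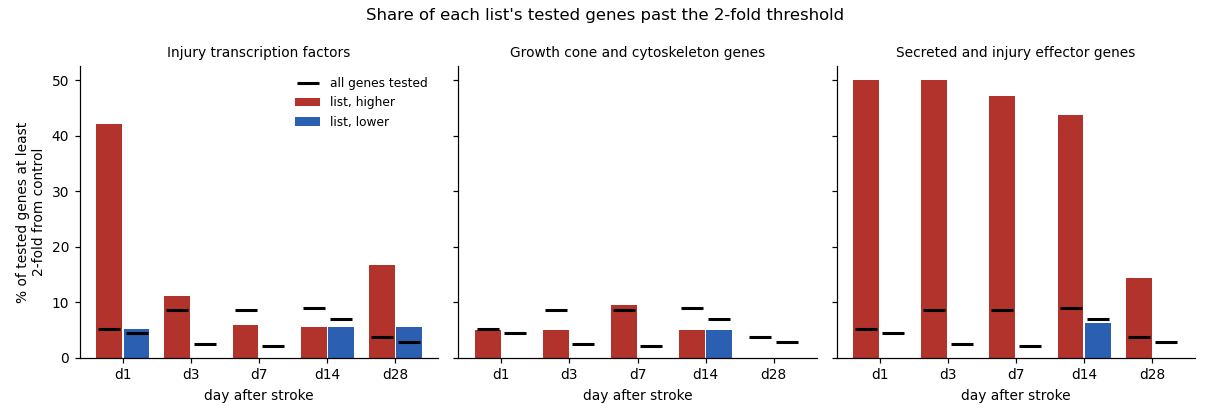
Share of tested genes at least 2-fold higher (red) or lower (blue) than control in 3 lists at each day after stroke (x axis, percent on the y axis from 0), with the share over all genes tested as black dashes. Genes not listed in control count as higher. The transcription factors stand at 42.1% higher at day 1, the effectors stay above the black dashes from day 1 to day 28, and the cytoskeleton list is near them.

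The genes whose course over the 6 libraries was most like that of Tubb6, by Pearson's r of log2(FPKM + 0.1), were Slc14a1 (r = 0.991), Hmox1 (r = 0.985) and Il4ra (r = 0.983). Hmox1, the heme oxygenase induced by free heme and oxidative stress, had 2.20 FPKM in control, then 27.0, 65.2, 19.7, 8.60 and 3.63 from day 1 through day 28. Among those most like Ecel1 were Pdcd5 (r = 0.987) and Psme1 (r = 0.980). The values are a description over 6 libraries, chosen as the highest r among 2351 genes that varied by at least 1 on the log2 scale, and all comparisons rest on the same libraries.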

How the data were processed

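FPKM in the ipsilateral cortex were computed by the authors and deposited for single events, each a transcript start, an end or a spliced segment. The submitters' processing notes name Trimmomatic 0.30, HISAT2 2.0.1, HTSeq 0.6.1 and mm10, with no role given. FPKM reach down to 1e-06, as model estimates do, so no read counts were recovered, the depth of each library is unknown and no interval is given. Each library listed 83501 to 99187 events and 13263 to 13987 genes.

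The level of a gene was the largest of its summed starts, its summed ends and any single event. Log2 ratios used a pseudocount of 0.1, a filter of 1 FPKM in either library and a threshold of 1. Of 15441 identifiers, 15411 matched GENCODE M21 (GRCm38). RefSeq promoters were searched by exact letters. The steps were tested on simulated data. Python 3.11.15, numpy 2.4.6, pandas 2.3.3 and matplotlib 3.10.9 were used. The named genes are the 10 members, list genes past the threshold or needed to understand a list, defining markers, and the 3 genes most like each member that was listed in all libraries and past the threshold at any day. Of these, 1 is not reported here. Members, lists and the gene level were chosen with earlier results of these data known. In all, 11 alternative settings were run, 1 of them chosen after seeing the data.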

Additional observations from a re-analysis of the deposited data

How the results depend on the processing

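No paired analysis was possible because each group holds 1 library, and no library could be left out for the same reason. With at least 1 FPKM required in both libraries, which removes Atf3, 1 member was higher at day 3 and 1 at day 7, in place of 2 each. The same counts of 1 and 1 came from an alternative chosen after seeing the data, which kept genes listed in both libraries. With a log2 ratio threshold of 2, 1 member was higher at day 7, in place of 2, and 1 at day 14, in place of 3. The other 104 counts of members under the 11 alternatives were within 1.5 times of the reported ones, and no called log2 ratio changed sign. Many of these counts, namely those of lower members and those at day 28, were 0 throughout and say little on stability. The rest include changes by 1 member. On day 1 and day 14, 2 members were higher in place of 3 when 1 was added to each FPKM or when corrected for transcript length. Both filters on the 2 libraries also gave 2 on these days. The threshold of 2 gave 2 at day 1, and the end sum gave 4 there. Of the log2 ratios of single members, 325 moved by less than 1.5-fold and 5 by more, all for Stmn2 with the end sum. Centring each library on its median log2 ratio, 0.09 at day 14 and at most 0.02 at the other days, left the counts as they were. Differences within the spread between mice could not be told from differences between days, since mice were pooled.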

Other observations

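A few genes of the lists had their highest level late. Ddit3, the stress factor CHOP, had 0.976 FPKM in control, then 1.11, 0.729, 0.970, 3.78 and 5.55 from day 1 through day 28, with its highest level in a library that did not list Atf3. Atf4, which acts upstream of Ddit3 and Atf3 in the integrated stress response, had 56.0 FPKM in control, 72.1 at day 1 and 60.2 at day 28. Cebpd was listed at day 14 (3.81 FPKM) and day 28 (3.89 FPKM) and in no other library. Dcx, a microtubule protein of migrating young neurons, had 0.360 FPKM in control and 0.417 at day 28, and 2.45 and 2.35 on days 7 and 14.

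Of the 89 genes named in the lists, 19 besides Sprr1a had no value. They include Junb and Jund, the other partners of c-Jun's own family, Basp1 and Marcks, which act with GAP-43 at the growth cone membrane, and Tubb3, so the growth cone set is described here only in part.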
